A study of Mus musculus with 6 samples.

Results

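Rpl22, its paralog Rpl22l1, the 5S RNP proteins Rpl5 and Rpl11, the ribosomal protein paralog Rps27l, and Trp53 with its regulators Mdm2 and Mdm4 were followed in hematopoietic stem cells (HSCs) with and without Rpl22. The members were chosen by symbol, for their place on the path from the ribosome to p53, and all 8 had a row among the 34573 genes counted. In Rpl22-/- HSCs the transcript of Rpl22 was reduced 13.4-fold, that of Mdm4, an inhibitor of p53, was 0.764-fold of its level in Rpl22+/+ HSCs, and no other member passed the test. The call of Mdm4 lay at the threshold. Rpl22l1 and Mdm2 differed between the genotypes by less than the spread between replicates.

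RNA was sequenced from HSCs of the bone marrow of Rpl22-/- mice (labelled Rpl22 KO, their libraries called KO) and Rpl22+/+ mice (labelled Rpl22 WT, their libraries called WT), with 3 libraries of each genotype. The mice were young adults backcrossed to C57BL/6 and received no treatment that the sources name, and Rpl22-/- stands for loss of both alleles in the whole animal and not in HSCs alone. The HSCs were sorted as lineage-negative Sca-1+ c-Kit+ CD48-CD150+ cells straight into TriReagent, and libraries were made from polyadenylated RNA with a TruSeq kit. The labels do not say whether the replicates of a genotype were separate animals, so the p-values measure only the spread between these samples, which may be technical.

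Rpl22 is a protein of the large ribosomal subunit that also binds particular mRNAs, and Rpl22l1 is its paralog, which can take its place on the ribosome and whose mRNA Rpl22 is known to bind and restrain. When ribosome assembly is disturbed, Rpl5 and Rpl11, joined with 5S rRNA in the 5S RNP, bind Mdm2, the ubiquitin ligase that marks p53 for degradation, and p53 accumulates. Much of this link runs through protein, so mRNA levels report on only some of its steps. Mdm2 and Rps27l are themselves p53 targets, and Mdm4 (also called Mdmx) binds p53 and holds back its activity together with Mdm2.

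Between 9321123 and 13385850 reads per library fell on genes, the lowest total in WT replicate 3, and reads of mitochondrial genes made up 3.063 to 3.829% of them. The 8 HSC markers were all present, with summed levels of 2134 to 2328 CPM (the reads of a gene scaled to its library's total) for Rpl22-/- HSCs and 2276 to 2353 for Rpl22+/+ HSCs, and 0 of them passed edgeR's adjusted test, 0 that of DESeq2 and 0 that of limma-voom (3 at an unadjusted edgeR p of 0.05). Among all genes tested 22.3% passed that unadjusted p. Cd48, against which the cells were sorted, stood at 4.89 to 7.30 CPM. Of 5 megakaryocyte markers 4 were higher in Rpl22-/- HSCs, with sums of 742 to 921 CPM against 502 to 667 CPM. By the same adjusted edgeR test 3.28% of all genes tested were higher and 2.29% lower. Neutrophil and monocyte markers summed to 262 to 422 CPM in the KO and to 262 to 299 CPM in the WT libraries, the highest in KO replicate 2, where Mpo reached 101 CPM. Of the multipotent progenitor markers and of the erythroid markers 1 each was lower in the KO libraries, and B cell markers summed to 24.6 to 28.2 CPM in the KO and 21.2 to 23.4 CPM in the WT libraries. Plasma cell markers summed to 5.55 to 9.41 CPM in the KO and 8.83 to 32.5 CPM in the WT libraries, where WT replicate 3 stood apart with 186 reads of Igkc and 61 of Igj, against at most 2 and 9 in any other library. T cell markers summed to 3.35 to 5.09 CPM in the KO and 3.93 to 6.07 CPM in the WT libraries. The T cell marker Cd3e and the B cell marker Ms4a1 were at 0 in all 6 libraries, and the part of these markers in the results that follow was not tested.

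The coding sequences of Rpl22 and Rpl22l1 are shown first because every comparison of the paralogs needs their reads to be told apart. Over 369 aligned bases 70.2% were identical, and the longest run without a difference was 26 bases. The stretch around that run is printed from the GENCODE M21 transcripts of GRCm38, with the run in capitals and positions counted from 1 at the first base of the start codon. In both genes it reaches from exon 3 into exon 4, so the coordinates include an intron.
Rpl22 coding bases 185 to 304, chr4:152330071-152332341, forward strand: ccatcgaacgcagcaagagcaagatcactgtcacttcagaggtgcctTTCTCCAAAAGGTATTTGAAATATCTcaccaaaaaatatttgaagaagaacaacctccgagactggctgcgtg
Rpl22l1 coding bases 167 to 286, chr3:28806801-28807248, forward strand: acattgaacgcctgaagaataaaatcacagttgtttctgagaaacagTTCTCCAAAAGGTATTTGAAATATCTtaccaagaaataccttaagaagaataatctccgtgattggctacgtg
Within these 120 bases 92 were identical, and a read that reaches past the capitals meets a difference on either side.

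Rpl22 is the gene that was knocked out, and it checks the genotypes. It lies on chromosome 4 of GRCm38 (chr4:152325742-152334071, forward strand). Its reads numbered 449, 527 and 546 in KO replicates 1, 2 and 3 and 6890, 7001 and 5031 in WT replicates 1, 2 and 3. Each KO library was thus far under each WT library, and the 6 libraries matched their labels. Scaled to CPM by TMM, a method that corrects library sizes for composition, this was 40.1 ± 4.59 (SD, n = 3) against 538 ± 20.7 (SD, n = 3). The log2 fold change was −3.75 (standard error 0.105) with an adjusted p of 2.97e-12 from the quasi-likelihood test of edgeR, adjusted after Benjamini and Hochberg over all 14004 genes tested. A fraction of 0.0745 of the Rpl22+/+ level was thus left in Rpl22-/- HSCs, and the gene counts do not show on which exons these reads lay.

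Rpl22l1 (chr3:28805436-28807424, forward strand) did not differ between the genotypes beyond the spread of its replicates. It measured 177, 165 and 124 CPM in KO replicates 1, 2 and 3 and 158, 161 and 187 CPM in WT replicates 1, 2 and 3. The genotypes overlapped, and the lowest value belonged to KO replicate 3. The log2 fold change was −0.12 (standard error 0.117, 95% interval −0.37 to 0.13, edgeR adjusted p = 0.592), which bounds a change of Rpl22l1 between 0.774-fold and 1.09-fold. Without KO replicate 3 it was 0.021 (adjusted p = 0.939). In a bulk sample, fewer cells of a type and less RNA per cell cannot be told apart.

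Since Rpl22 fell and Rpl22l1 did not pass the test, the share of the pair's reads that belonged to Rpl22l1 was inverted. For each Rpl22 read there were 5.06, 3.77 and 2.98 Rpl22l1 reads in KO replicates 1, 2 and 3, and 0.299, 0.287 and 0.358 in WT replicates 1, 2 and 3. Rpl22l1 held 74.9 to 83.5% of the reads of both genes in Rpl22-/- HSCs and 22.3 to 26.4% in Rpl22+/+ HSCs, so that the genotypes stood well apart. The ratio was 12.3-fold higher in Rpl22-/- HSCs, and its exact two-sided permutation p was 0.1, the smallest that 3 libraries against 3 allow. This contrast contains the knockout of Rpl22 itself, since the reads of Rpl22 are its denominator.

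A longer transcript collects more reads, and the annotated lengths of Rpl22 differ, so the ratio of the paralogs per kilobase was computed with 3 lengths. With the shortest coding transcript of each gene (474 bases for Rpl22, 525 for Rpl22l1), Rpl22l1 per Rpl22 was 0.259 to 0.323 in Rpl22+/+ HSCs and 2.69 to 4.57 in Rpl22-/- HSCs. With the longest (2051 and 552 bases) it was 1.07 to 1.33 in Rpl22+/+ HSCs and 11.1 to 18.8 in Rpl22-/- HSCs, and with all annotated exons merged it was 0.421 to 0.524 and 4.36 to 7.41. Which paralog was the more abundant transcript in Rpl22+/+ HSCs therefore depended on the length used, whereas Rpl22l1 was the more abundant in Rpl22-/- HSCs with all 3 lengths. The exons that hold the remaining Rpl22 reads in Rpl22-/- HSCs are not known, so these lengths may not apply there.

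**Figure D1:**
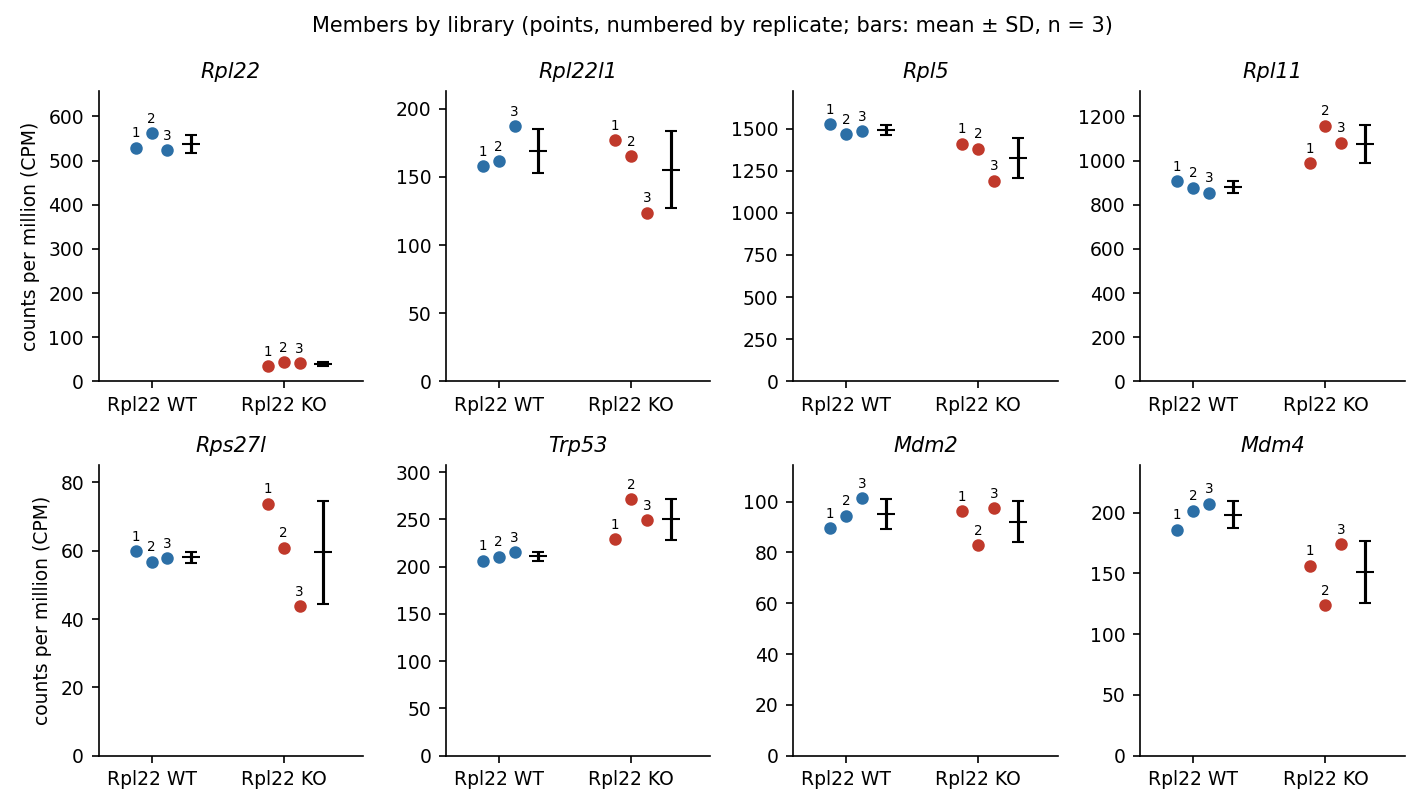
CPM (vertical axis, from 0) of the 8 members in each library of Rpl22 WT and Rpl22 KO HSCs, with points numbered by replicate and bars for the mean ± SD (n = 3). Rpl22 is near 40.1 CPM in the KO libraries and near 538 CPM in the WT libraries, Rpl11 and Trp53 lie higher and Rpl5 and Mdm4 lower in the KO libraries without overlap, and Rpl22l1, Rps27l and Mdm2 overlap.

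Among the 8 members 2 passed an adjusted p of 0.05, Rpl22 and Mdm4, both lower in Rpl22-/- HSCs, where 5.57% of all genes tested passed in either direction and 2.29% were lower. For 5 members, Rpl22 included, the 3 libraries of one genotype lay entirely above or below the other 3, which was so for 26.9% of all genes tested. Of these, Rpl11 and Trp53 were the higher ones in Rpl22-/- HSCs and Rpl22, Rpl5 and Mdm4 the lower ones. An unadjusted p below 0.05 was found for 4 members, Rpl22, Rpl11, Trp53 and Mdm4, and for 22.3% of all genes. Rpl22 is in each of these counts, and its change was set by the knockout. The members were also chosen with earlier results of these data known, so the counts are a description.

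The 5S RNP proteins Rpl5 and Rpl11, which hold 5S rRNA in the large subunit and carry it to Mdm2, had differences of opposite sign, neither of which passed the adjusted threshold. Rpl5 (chr5:107900502-107909005, forward strand) measured 1410, 1379 and 1191 CPM in KO replicates 1, 2 and 3 against 1524, 1468 and 1483 CPM in the WT libraries. Rpl11 (chr4:136028265-136053428, reverse strand) measured 988, 1158 and 1082 CPM in KO replicates 1, 2 and 3 against 907, 878 and 855 CPM in the WT libraries. All 3 KO libraries were thus under the WT libraries for Rpl5 and over them for Rpl11, and for both genes the KO libraries were the more scattered.

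The log2 fold change of Rpl5 was −0.17 (standard error 0.0970, 95% interval −0.37 to 0.037) with an edgeR adjusted p of 0.323. For Rpl11 it was 0.29 (standard error 0.0936, 95% interval 0.091 to 0.49) with an edgeR adjusted p of 0.0789, and a p of 0.00707 before adjustment. Rpl11 passed the adjusted threshold without a filter on low counts (0.0440), with the Wald test of DESeq2 (0.0138) and without KO replicate 1 (0.0189). Both genes have processed pseudogenes, and the near-identical copies in the count table held at most 1.05% of the reads of Rpl5 and 0.338% of those of Rpl11. For each gene only 5 of 10 such copies had a row. With the reads of the copies that had a row added, the log2 fold change was −0.16 for Rpl5 (edgeR adjusted p = 0.344). For Rpl11 it was then 0.29 (edgeR adjusted p = 0.0783). How reads that fit several places were counted is not stated, so the full effect of the copies on these counts is not known. Rpl5 also overlaps Fam69a on the opposite strand, and the strand setting of the counting is not given in the sources used here.

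The balance of the pair was compared within each library, where differences in library size cancel. Rpl5 had 1.43, 1.19 and 1.10 reads for each read of Rpl11 in KO replicates 1, 2 and 3, against 1.68, 1.67 and 1.73 in WT replicates 1, 2 and 3. The ratio was 0.727-fold in Rpl22-/- HSCs, with no overlap and an exact two-sided permutation p of 0.1, again the smallest possible. The Rpl22+/+ ratios lay close together, while those of Rpl22-/- HSCs were spread more widely than the Rpl22+/+ ones.

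Trp53 (chr11:69580359-69591873, forward strand), the gene of p53, measured 229, 272 and 249 CPM in KO replicates 1, 2 and 3 and 206, 211 and 215 CPM in WT replicates 1, 2 and 3. Its KO libraries were all above the WT libraries. The log2 fold change of 0.25 (standard error 0.0868, 95% interval 0.061 to 0.43) had an edgeR p of 0.0123 before and 0.104 after adjustment, and its adjusted p came under the threshold without KO replicate 1 (0.31, adjusted p = 0.0288). The processed pseudogene Trp53-ps had 0 reads in each library.

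Mdm2 (chr10:117688875-117710758, reverse strand), at once an inhibitor and a target of p53, measured 96.3, 82.9 and 97.3 CPM in KO replicates 1, 2 and 3 and 89.6, 94.5 and 101 CPM in WT replicates 1, 2 and 3. The genotypes overlapped, with the lowest and the highest value in KO replicate 2 and WT replicate 3. Its log2 fold change was −0.045 (standard error 0.0908, edgeR adjusted p = 0.818), and the 95% interval of the fold change of Mdm2 ran from 0.848 to 1.11. The sign was not stable, at 0.026 without KO replicate 2.

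Mdm4 (chr1:132959484-133030561, reverse strand), which binds p53 but does not ubiquitinate it efficiently on its own, was the only member other than Rpl22 that passed. It measured 156, 124 and 174 CPM in KO replicates 1, 2 and 3 and 186, 202 and 207 CPM in WT replicates 1, 2 and 3. The genotypes did not overlap, and the lowest value was in KO replicate 2, the library with the highest neutrophil markers. The log2 fold change of Mdm4 was −0.39 (standard error 0.109, 95% interval −0.62 to −0.16) with an edgeR adjusted p of 0.0484.

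This call of Mdm4 lay at the threshold and did not hold under every setting, although the direction did. Without KO replicate 2 the log2 fold change was −0.26 (adjusted p = 0.132), and without KO replicate 3 it was −0.50 (0.0561). Leaving out WT replicate 1, 2 or 3 gave adjusted p-values of 0.102, 0.140 and 0.153, and after each library's length and GC trends were taken out the log2 fold change was −0.25 (adjusted p = 0.164). The adjusted p was below 0.05 under 9 of 17 alternatives. The processed pseudogene Mdm4-ps, on chromosome X and 94.1% identical to Mdm4 where aligned, had 252, 160 and 275 reads in KO replicates 1, 2 and 3 and 357, 323 and 267 in WT replicates 1, 2 and 3, which is 10.8 to 14.8% of the reads of Mdm4, so that part of the reads of this pair could have been assigned to either. With the reads of Mdm4-ps added to those of Mdm4, the log2 fold change was −0.41 (edgeR adjusted p = 0.0409).

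Within a library, Mdm2 had 0.615, 0.671 and 0.560 reads for each read of Mdm4 in KO replicates 1, 2 and 3 and 0.482, 0.469 and 0.489 in WT replicates 1, 2 and 3. The ratio was 1.28-fold higher in Rpl22-/- HSCs without overlap. For each read of Trp53, Mdm2 had 0.420, 0.305 and 0.391 reads in KO replicates 1, 2 and 3 and 0.434, 0.449 and 0.471 in WT replicates 1, 2 and 3. That ratio was 0.817-fold in Rpl22-/- HSCs, also without overlap, although KO replicate 1 came within a small margin of WT replicate 1. For both ratios the exact two-sided permutation p was 0.1, and adjusted over the 5 ratios tested it was 0.1 as well. Each of the 5 ratios includes a gene whose libraries did not overlap by itself, as was so for 26.9% of all genes tested. How many other pairs of genes would separate was not examined.

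**Figure D2:**
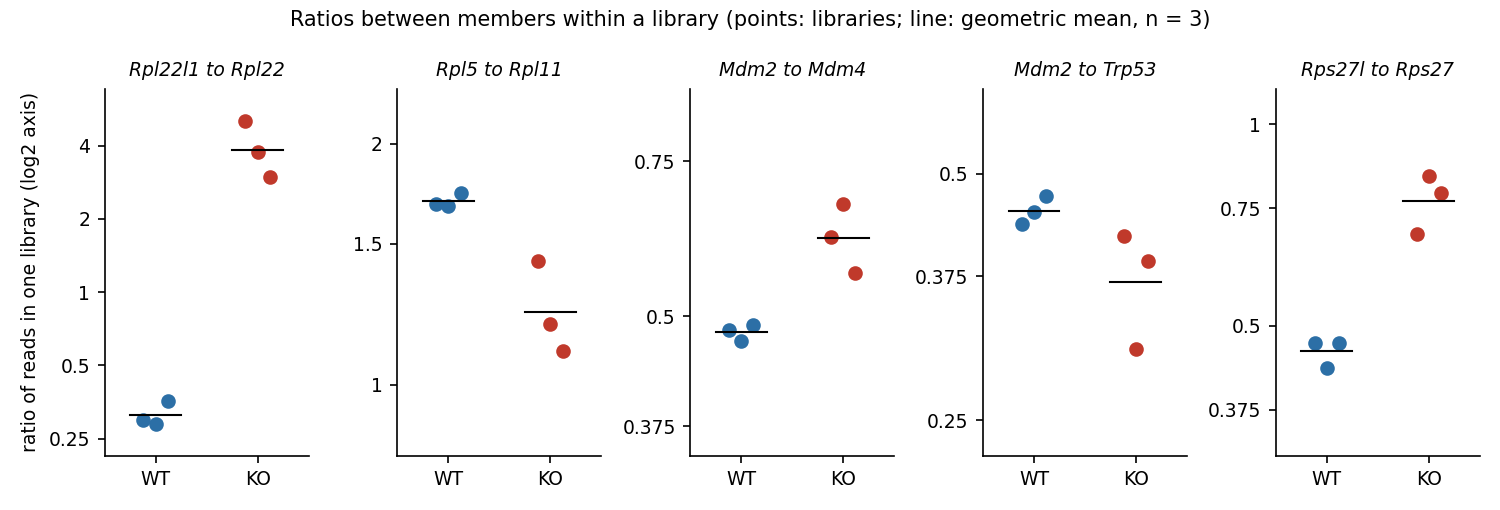
Ratio of the reads of 2 genes within each library (vertical axis, log2 scale, separate for each panel) in WT and KO HSCs, with points for libraries and lines for geometric means (n = 3). In none of the 5 panels do the genotypes overlap, and each ratio includes a gene whose libraries did not overlap by itself. Of single genes tested, 26.9% did not overlap. The difference is largest for Rpl22l1 to Rpl22 (12.3-fold) and smallest for Mdm2 to Trp53 (0.817-fold).

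Rps27l (chr9:66946086-66949516, forward strand), a p53 target and the paralog of the small-subunit protein Rps27, measured 73.8, 60.8 and 43.8 CPM in KO replicates 1, 2 and 3 and 59.8, 56.7 and 57.7 CPM in WT replicates 1, 2 and 3. The KO libraries surrounded the WT libraries on both sides. The means were nearly equal, 59.5 ± 15.0 against 58.1 ± 1.58 CPM (SD, n = 3), and the log2 fold change of 0.033 (standard error 0.139, 95% interval −0.26 to 0.33, edgeR adjusted p = 0.918) ran from −0.15 without KO replicate 1 to 0.21 without KO replicate 3.

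Rps27 itself, named here as the partner of Rps27l, was lower in Rpl22-/- HSCs. It measured 107, 72.7 and 55.5 CPM in KO replicates 1, 2 and 3 against 127, 131 and 122 CPM in WT replicates 1, 2 and 3 (log2 fold change −0.69, standard error 0.161, edgeR adjusted p = 0.0226). For both genes KO replicate 1 was the highest and KO replicate 3 the lowest of the KO libraries, none of which reached a WT library for Rps27. Rps27l had 0.687, 0.836 and 0.790 reads for each read of Rps27 in KO replicates 1, 2 and 3 and 0.472, 0.432 and 0.472 in WT replicates 1, 2 and 3, a 1.68-fold difference without overlap (exact two-sided permutation p = 0.1). The level of Rps27 is uncertain, because the annotation holds a gene, Rps27rt, whose transcript is 100% identical to it over the aligned bases and which was not analysed here.

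The coding sequences of this pair are shown around their longest shared run, in capitals, for the same reason as those of the Rpl22 paralogs. Both stretches reach from exon 2 into exon 3, with positions counted as above.
Rps27 coding bases 95 to 214, chr3:90212946-90213213, reverse strand: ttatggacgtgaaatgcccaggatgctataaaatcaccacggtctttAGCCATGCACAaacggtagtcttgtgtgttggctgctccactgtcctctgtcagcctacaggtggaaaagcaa
Rps27l coding bases 95 to 214, chr9:66946919-66947685, forward strand: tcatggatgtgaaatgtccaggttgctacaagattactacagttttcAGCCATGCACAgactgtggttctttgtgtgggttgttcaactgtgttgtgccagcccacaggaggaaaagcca
Over 255 aligned coding bases 76.1% were identical and the longest run was 11 bases. The coding sequences of Mdm2 and Mdm4, by contrast, were 59.3% identical over 1372 aligned bases.

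The levels of different members were compared per kilobase, as CPM divided by the length of the shortest coding transcript. In Rpl22+/+ HSCs the order from the highest level was Rpl22 (1135 ± 43.7), Rpl11 (1056 ± 31.7), Rpl5 (729 ± 14.3), Rpl22l1 (322 ± 30.5), Trp53 (119 ± 2.55), Rps27l (116 ± 3.16), Mdm4 (104 ± 5.83) and Mdm2 (30.7 ± 1.90 CPM per kb, SD, n = 3). The libraries of neighbours in this order overlapped only for Trp53 and Rps27l. In Rpl22-/- HSCs Rpl11 stood first (1291 ± 102), and Rpl22 (84.6 ± 9.68) had moved between Rps27l (119 ± 30.1) and Mdm4 (79.0 ± 13.3 CPM per kb, SD, n = 3), whose ranges both overlapped with its own. This place of Rpl22 rests on a length that may not apply to its remaining reads in Rpl22-/- HSCs. With the longest coding transcripts, Rpl22 in Rpl22+/+ HSCs was at 262 ± 10.1 and Mdm4 at 27.9 ± 1.57 CPM per kb (SD, n = 3), under Rpl22l1 and Mdm2, so the places of these genes depended on the length used.

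The rest of the pathway was read from 6 lists of genes, grouped by role. Of the other paralogs of ribosomal proteins, genes like Rpl22l1 or Rps27l, 2 were expressed enough to be tested and neither passed with edgeR, DESeq2 or limma-voom, nor at an unadjusted edgeR p of 0.05, Rpl7l1 with a log2 fold change of −0.038 and Rpl36al with 0.097. Rpl39l had 8, 9 and 6 reads in KO replicates 1, 2 and 3 and 0, 4 and 0 in WT replicates 1, 2 and 3, which was too few for the test. Rpl3l had 2 reads in KO replicate 1 and 0 elsewhere, and Rpl10l had 0 in all libraries. Rps4l was also listed but had no row among the genes counted.

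Of 14 other ribosomal proteins reported to bind Mdm2, 1 rose and 1 fell with the loss of Rpl22, and they had a median log2 fold change of 0.11, against −0.0068 for the median of every gene tested. The higher one was Rps26, a protein of the mRNA exit channel of the small subunit, at 750, 815 and 654 CPM in KO replicates 1, 2 and 3 against 603, 562 and 533 CPM in the WT libraries (log2 fold change 0.39, standard error 0.0995, edgeR adjusted p = 0.0345). The lower one was Rps27. Neither call held in each setting, since 0 genes of the list passed when KO replicate 2 or any single WT library was left out, and 5 passed without KO replicate 1. With all 6 libraries 5.57% of all genes tested passed in either direction.

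The 12 factors that assemble the 5S RNP and dock it on the pre-60S particle gave 0 calls with edgeR (3 at an unadjusted p of 0.05), 0 with limma-voom and 1 with DESeq2, and their median log2 fold change was 0.032. The unadjusted edgeR p was below 0.05 for 22.3% of all genes tested. The factors with the smallest p were Gtf3a, the transcription factor TFIIIA that also binds 5S rRNA (log2 fold change 0.30, edgeR adjusted p = 0.0628), and Wdr18, a component of the particle that remodels the pre-60S subunit (0.26, adjusted p = 0.147). Rpf2 and Rrs1, which place the 5S RNP on the pre-60S particle, had log2 fold changes of 0.18 and 0.22 with libraries that overlapped.

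The 8 nucleolar regulators of Mdm2 and p53 that were tested likewise gave 0 calls with edgeR (3 at an unadjusted p of 0.05), 0 with DESeq2 and 0 with limma-voom, with a median log2 fold change of 0.14. That unadjusted p was passed by 22.3% of all genes tested. Npm1, the nucleolar chaperone nucleophosmin, had a log2 fold change of 0.33 (edgeR adjusted p = 0.126), and Mybbp1a had one of 0.23 (adjusted p = 0.189). Cdkn2a, whose Arf product inhibits Mdm2, had too few reads to be tested, with a mean of 0.052 CPM over the KO and 0 CPM over the WT libraries.

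Of 31 enzymes and partners that set the activity of p53 or Mdm2, 1 rose and 0 fell by edgeR, DESeq2 or limma-voom, with a median log2 fold change of −0.0026. At an unadjusted edgeR p of 0.05 it was 6 higher and 5 lower. Of all genes tested 22.3% passed that p and 5.57% the adjusted one, in either direction. The one that passed was Ccng1, or cyclin G1, which recruits a phosphatase to Mdm2 and is itself a p53 target. It measured 137, 159 and 157 CPM in KO replicates 1, 2 and 3 against 111, 102 and 91.5 CPM in the WT libraries (log2 fold change 0.57, standard error 0.0936, edgeR adjusted p = 0.00444). Usp7, which removes ubiquitin from Mdm2 and p53, had a log2 fold change of −0.082 with overlapping libraries. Atm, a kinase of the DNA damage response that phosphorylates p53, had a log2 fold change of −0.27 and an adjusted p of 0.0723.

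Mdm2 and Rps27l were set beside the other direct p53 targets. Of 30 that were tested 9 rose and 0 fell by each of edgeR, DESeq2 and limma-voom (13 and 2 at an unadjusted edgeR p of 0.05), their median log2 fold change being 0.27, where 3.28% of all genes tested were higher. They included Phlda3, an inhibitor of Akt (log2 fold change 3.01), Cdkn1a, the cell cycle inhibitor p21 (2.54), Zmat3, an RNA-binding protein (2.40), and Eda2r, a receptor of the TNF family (2.01). The proapoptotic genes Bbc3 and Bax had log2 fold changes of 1.02 and 0.75, Psrc1 one of 0.87, and Ccng1 and Aen were the other two. Between 8 and 10 of the list passed under the alternatives.

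Zmat3 rose from 9.68, 10.8 and 9.57 CPM in WT replicates 1, 2 and 3 to 47.2, 63.6 and 48.9 CPM in KO replicates 1, 2 and 3 (standard error 0.142 on the log2 scale, edgeR adjusted p = 8.05e-08). Cdkn1a was at 2.30, 1.69 and 2.60 CPM in WT replicates 1, 2 and 3 and at 9.43, 15.5 and 13.3 CPM in KO replicates 1, 2 and 3 (standard error 0.250, edgeR adjusted p = 7.56e-05). Neither gene overlapped between the genotypes. By log2 fold change Rps27l ranked 20th and Mdm2 25th of the 32 p53 targets tested when these 2 were counted with the list. The ranks, the number of targets called and their median are a description, because the list was assembled with earlier results of these libraries known.

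**Figure D3:**
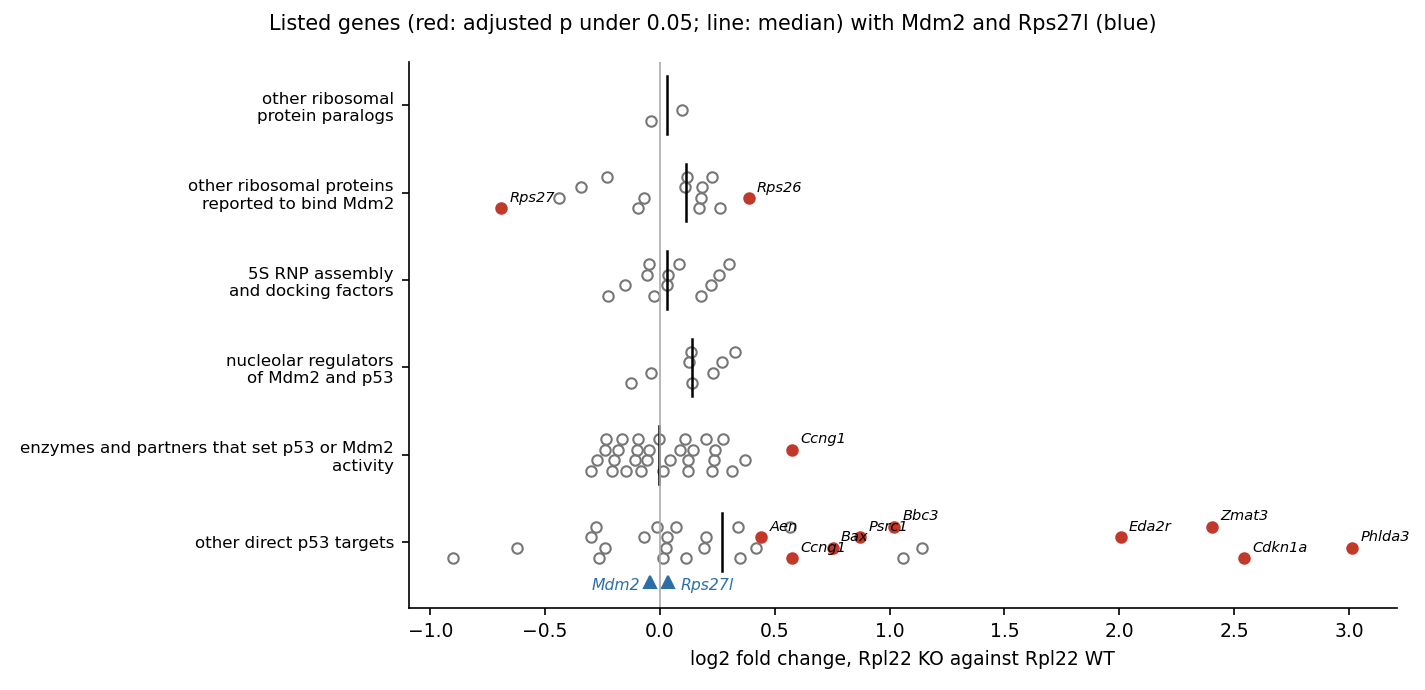
Log2 fold change of Rpl22 KO against Rpl22 WT HSCs (horizontal axis) for the tested genes of the 6 lists (rows), in red where the edgeR adjusted p was below 0.05, with a line at each list's median. Mdm2 and Rps27l, in blue under the p53 targets, lie at −0.045 and 0.033, while 9 other targets are red and reach 3.01.

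The promoters of the p53 targets were searched for the letters of a p53 half-site, the degenerate decamer bound by a p53 dimer, and of a full site, a pair of half-sites up to 13 bases apart, on both strands of 300 bases around each RefSeq start (GRCm38.p6). All 8 members had a window there, and 3 of them, Mdm2, Rps27l and Trp53, held a half-site. Of the 9 called p53 targets 8 matched, all but Zmat3, and of these 4 (Cdkn1a, Ccng1, Bax and Aen) held a half-site and 1, Cdkn1a, a full site, while 8.36% of 32851 promoter windows held a half-site and 0.0731% a full site. The counts of genes accept a match in any window of a gene, and the 8 members had 11 windows, whereas these shares are per window. The matches are printed with the half-site in capitals, for the 2 members that are p53 targets, for Trp53 and for the called targets Cdkn1a, Ccng1 and Bax.
Mdm2 promoter, chr10:117710920-117710959, reverse strand: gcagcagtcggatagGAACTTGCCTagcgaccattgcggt
Rps27l promoter, chr9:66946188-66946227, forward strand: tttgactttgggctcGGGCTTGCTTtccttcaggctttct
Rps27l promoter, chr9:66946291-66946330, forward strand: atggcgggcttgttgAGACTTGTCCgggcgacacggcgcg
Trp53 promoter, chr11:69580269-69580308, forward strand: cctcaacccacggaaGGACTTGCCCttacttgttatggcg
Cdkn1a promoter, chr17:29090902-29090941, forward strand: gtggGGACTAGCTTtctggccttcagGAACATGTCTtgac
Ccng1 promoter, chr11:40755447-40755486, reverse strand: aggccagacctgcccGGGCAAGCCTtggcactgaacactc
Bax promoter, chr7:45467075-45467114, reverse strand: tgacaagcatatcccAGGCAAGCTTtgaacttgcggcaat
All of these stretches lie before their RefSeq start. By GENCODE M21 those of Mdm2 and Trp53 lie outside the span of the gene, and those of Rps27l lie within it, before an inner RefSeq start. A half-site thus stood in the promoter windows of Mdm2 and Rps27l, whose transcripts did not pass the test. It also stood in those of Ccng1, Bax, Cdkn1a and Aen, which did, though the matches of Aen are not printed. Sequence outside the windows was not searched, and whether p53 binds at a match was not tested. Phlda3, Eda2r, Bbc3 and Psrc1 passed as well and had no match in their windows, which says only that these letters are not there.

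The genes closest to Rpl22l1 and Mdm2 across the 6 libraries were looked up among 10645 genes with an average log2 CPM of at least 3. Group means were not removed, so differences between the genotypes and between replicates both enter. Over the 6 libraries, log2 CPM of Rpl22l1 was most like that of Rftn1 (Pearson's r = 0.992), Ctnnbip1 (0.988) and Slc37a4 (0.974). For Mdm2 the closest were Spns2 (0.993), Traf3ip2 (0.991) and Hdac6 (0.990). With 6 libraries that share a scaling and this many genes to choose from, such values are a description.

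Across 17 other ways of fitting the counts, Rpl22 kept a log2 fold change between −3.81 and −3.65, and Rpl11, Trp53, Rpl5 and Mdm4 kept their signs. Rpl11 ran from 0.20 to 0.35 and Trp53 from 0.18 to 0.31. Rpl5 ran from −0.21 to −0.096. Rpl22l1, Rps27l and Mdm2 changed sign in at least 1 setting, each time with an adjusted p above 0.05.

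**Figure D4:**
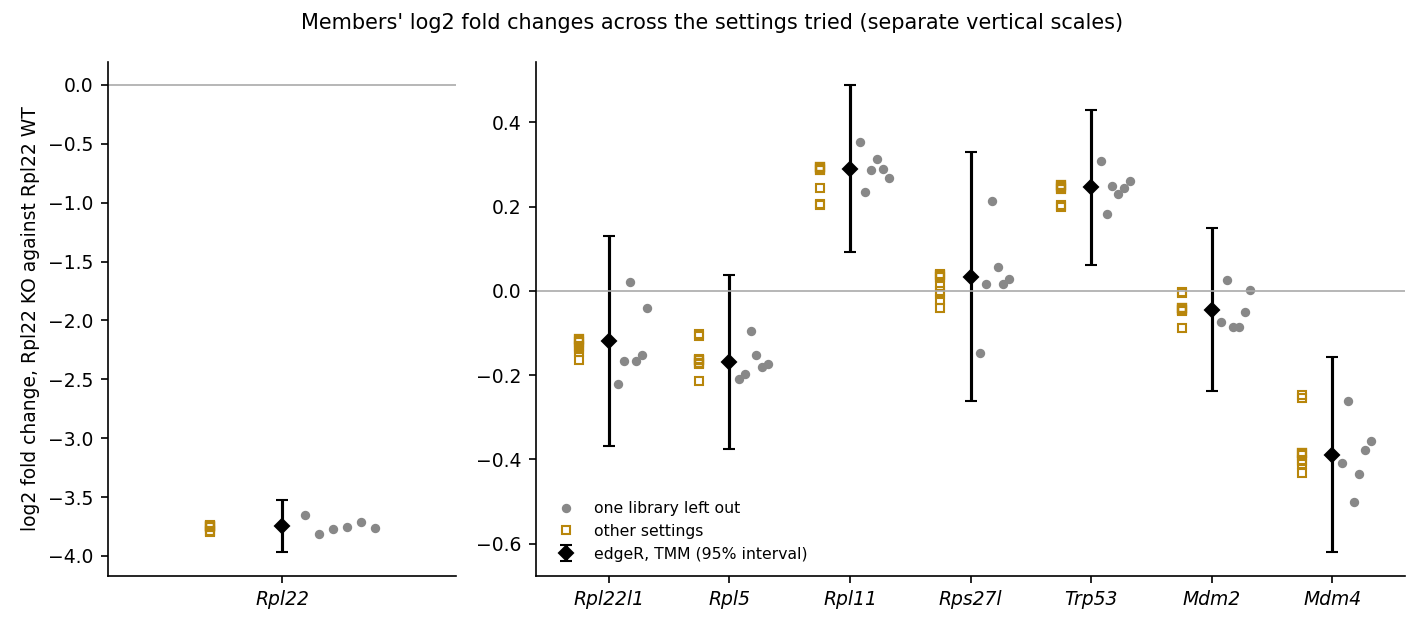
Log2 fold change of each member in Rpl22 KO against Rpl22 WT HSCs (vertical axis, a separate scale for Rpl22), with diamonds and bars for the edgeR value and its 95% interval, squares for other settings and points for fits with 1 library left out. Rpl11 and Trp53 stay above and Rpl5 and Mdm4 below 0 in all of these, whereas Rpl22l1, Rps27l and Mdm2 lie on both sides of it.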

How the data were processed

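RNA from sorted HSCs of 3 Rpl22-/- and 3 Rpl22+/+ samples was sequenced as 1 library each. TopHat2 2.1.1 (mm10) and HTSeq were the authors' aligner and counter, per the labels, and the deposited values are raw read counts per gene. The gene annotation, the strand setting and the read length are not given in the sources used here. The 5 lines of unassigned reads, 58.631 to 60.875% of the total, were left out of library sizes and tests. Counts were compared with edgeR 4.0.16 (R 4.3.3) by the quasi-likelihood test on genotype alone, after a filter on low counts (minimum count of 10) and TMM scaling, with Benjamini-Hochberg adjustment over the 14004 genes left, and a gene was called at an adjusted p below 0.05. Standard errors were obtained by dividing a log2 fold change, without its sign, by the root of its F statistic. DESeq2 1.42.0, which the authors used, limma 3.58.1, other scalings and filters, single libraries left out and a term for replicate number were alternatives, and the fits were tested on simulated data. Another alternative added the reads of near-identical copies to those of their member. Each member had at least 449 reads per library, and how much of a member's spread between libraries was counting error was not tested.

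Positions, lengths and transcripts came from GENCODE M21 on GRCm38 (the same assembly as mm10). Of the symbols, 29042 matched directly and 1880 through an older symbol. Near-identical copies were transcripts with at least 90% identity over at least 50% of their length (BLAST 2.17.0). Promoter sequences are from RefSeq. Protein sequences were not used here. Levels per kilobase divide CPM by a transcript's length. Ratios within a library were compared by exact permutation of the 20 splits of 6 libraries, on log2 values. The genes named are the members, the genes of each list that passed (up to 8) or, with fewer than 2, the 2 with the smallest p, all other ribosomal protein paralogs, Rps27, and the 3 genes closest to Rpl22l1 and to Mdm2. Aen, the ninth p53 target called, Cdkn2a, Usp7, Rpf2 and Rrs1 were named after their values were seen. The members and lists were chosen with earlier results of these data known.

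Replicates of a genotype differed by more than sampling noise (chi-square per degree of freedom 4.05 to 13.7), so none was a library deposited in duplicate.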

Additional observations from a re-analysis of the deposited data

How the results depend on the processing

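The labels give the same replicate numbers to both genotypes but do not tie them to a litter or day. The deviations of same-numbered libraries from their group means correlated at −0.103, 0.0549 and 0.0448, so the numbers were not taken as pairs. With a term for replicate number (the replicate block) 904 genes were called over all genes against 780 without it, the members' calls did not change, and of the enzymes and partners that set p53 or Mdm2 activity 2 passed in place of 1. With the block the log2 fold change of Mdm4 was −0.40 (adjusted p = 0.0232) and that of Rpl22 −3.75.

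Mdm4 lost its call with upper-quartile scaling (−0.38, adjusted p = 0.0505), with each library's length and GC trends taken out (−0.25) and with these trends and the block (−0.25), which leaves 1 member called in each. Leaving out single libraries gave log2 fold changes from −0.50 to −0.26 for Mdm4, from 0.23 to 0.35 for Rpl11, from 0.18 to 0.31 for Trp53, from −0.22 to 0.021 for Rpl22l1, from −0.15 to 0.21 for Rps27l and from −0.086 to 0.026 for Mdm2 (0.00084 without WT replicate 3). It gave 1 to 4 members called. Rpl11 was called with DESeq2 (0.29) and with no filter (0.29). Rps27l was below 0 with library size alone (−0.0087), with limma-voom (−0.00093), with the trends removed (−0.022) and with the trends and the block (−0.042).

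Of the ribosomal proteins that bind Mdm2, 4 passed with no filter and 1 with the trends removed, and 0 to 5 with a library left out. Of the 5S RNP factors 1 passed with DESeq2 and 1 with no filter. Of the nucleolar regulators 1 passed with no filter, and 0 to 2 with a library left out. Of the enzymes and partners 4 passed with library size alone and 2 with no filter, and 1 to 5 with a library left out. The 5 ratios kept their direction under all 8 alternatives. Over all genes, calls ran from 127 without KO replicate 3 to 1720 without KO replicate 1, and were 501 with the trends removed, 532 with the trends and the block and 1422 with no filter. The causes of these shifts were not tested, and with 3 libraries against 3 no exact permutation test can go below 0.1.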
